A study of Bos taurus with 24 samples.

Results

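The early response of Angus dermal fibroblasts to lipopolysaccharide (LPS) was taken from 8 of the 24 RNA-seq libraries of the series. These were the 4 Angus cultures collected at hour 0, before LPS, and the same 4 cultures collected at hour 2 post-LPS, and samples with the same number came from the same animal. Each culture came from the shoulder skin of a different Angus heifer in the second year of life. Cells were frozen at the third passage, then revived, expanded and reseeded in medium with fetal bovine serum, insulin, transferrin and selenium, and were challenged with LPS of Escherichia coli O111:B4 at 100 ng/ml. The 4 Angus cultures at hour 8 and 4 Holstein cultures at hours 0 and 2, which received the same dose, were used only to show where the Angus response at hour 2 differed. No culture was kept for 2 h without LPS, so the effect of LPS and that of 2 h of handling or medium cannot be told apart. A culture here is a model of connective tissue cells away from leukocytes and vessels, and each library pooled the lysates of duplicate wells.

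LPS is the main glycolipid of the outer membrane of Gram-negative bacteria. It is bound by CD14 and by the pair LY96 and TLR4, and the adaptors MYD88 and TICAM1 pass the signal to the transcription factors NF-kB, AP-1 and IRF. Fibroblasts of the skin answer with chemokines that draw leukocytes, with IL6 and prostaglandins, and with inhibitors that end the signal. Some of these inhibitors, such as NFKBIA and TNFAIP3, are targets of NF-kB.

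The tables gave read counts for 59846 rows of the bovine genome build UMD v3.1, of which 27550 carried a gene symbol. The 8 libraries held 61457138 to 104406293 counts, so 3 counts corresponded to 0.029 to 0.049 counts per 1000000 counts (CPM). The cultures had the markers of fibroblasts: all 14 of that list were tested, none was called, and their summed level was 54168 to 69512 CPM at hour 0 and 44106 to 89411 CPM at hour 2. This sum includes COL1A1, which was set apart at 31184 CPM in animal 4 at hour 0 and 36658 CPM in animal 3 at hour 2. Markers of other cells were low. The 9 keratinocyte markers summed to 1.5 to 2.20 CPM in any sample, with KRT1, KRT14, DSG3 and EPCAM at 3 counts or fewer in each library. The 8 endothelial markers summed to 2.19 to 3.46 CPM, and TIE1, KDR and CLDN5 were at 3 counts or fewer throughout. The 11 leukocyte markers summed to 3.07 to 5.53 CPM, and CD3E, SPI1 and TYROBP were at 3 counts or fewer. Melanocyte markers summed to 11.3 to 13.1 CPM at hour 0 and to 7.04 to 8.99 CPM at hour 2. Smooth muscle and pericyte markers, which myofibroblasts also express, summed to 494 to 666 CPM at hour 0 and to 751 to 990 CPM at hour 2, to which CNN1, a calponin of contractile cells, gave 238 ± 35.8 and 361 ± 37.7 CPM (SD, n = 4). Adipocyte markers summed to 12.4 to 22.4 CPM, with ADIPOQ at 3 counts or fewer. In bulk RNA a smaller number of cells of a type and less RNA per cell cannot be told apart. The part of these cells in the results was not tested.

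Libraries of 2 cultures stood apart before any comparison: animal 4 at hour 0 and animal 3 at hour 2. At COL1A1, the chain of type I collagen, each count stood for 67.1 and 66.9 covered bases in them against 112.7 to 119.0 in the other 6. COL1A1 reached 31184 and 36658 CPM in the same 2 libraries, and their matched reads were 96.53% and 96.54% against 92.88 to 95.11%. Animal 3 at hour 2 had 79.47% of its counts in rows with a symbol, the lowest of the 8. Values without both libraries, from a fit of 3 samples against 3 with no pairing, are given beside each named result whose call or direction they changed or whose fold change they moved by over 1.5 times.

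Of the 27550 rows with a symbol, 12974 had at least 1 CPM in at least 4 of the 8 libraries and were tested with edgeR, with the animal as a block. A row was called when its false discovery rate (FDR) was under 0.05, its fold change was at least 2 and its mean level was over 1 CPM. By this rule 435 rows (3.35% of those tested) changed at hour 2, of which 266 (2.05%) rose and 169 (1.3%) fell. The rises were larger than the falls: 63 rows rose and 8 fell by 2 or more on the log2 scale, and the medians of the called log2 fold changes were 1.41 and -1.21. A total of 430 called rows moved in the same direction in all 4 animals, as did 55.8% of all rows tested, and in 352 the 8 levels of the 2 time points did not overlap, as in 21.6% of rows tested. With the FDR alone 4947 rows (38.1%) passed, 2267 higher and 2680 lower. Without scaling for composition, 215 rows rose and 262 fell, 45.1% higher in place of 61.1%, because the median of all rows then moved to -0.1256 from -0.0014. In the fit without both uneven libraries 248 rows rose and 186 fell, and 328 rows were called in both fits.

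**Figure D1:**
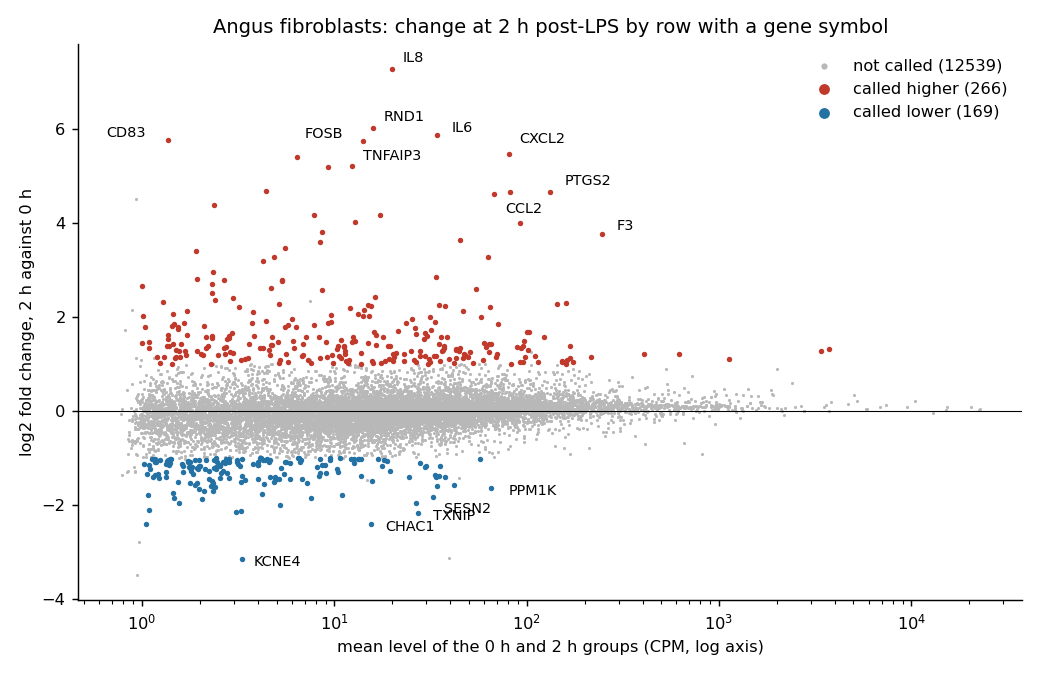
Each point is a row with a gene symbol tested in Angus cultures, with the mean level of the hour 0 and hour 2 groups in CPM on a log axis and the log2 fold change at hour 2 on the vertical axis. The 266 red rises reach 7.26 (IL8), while the 169 blue falls end at -3.15 (KCNE4).

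Chemokines were among the largest rises. IL8, which draws neutrophils, lies on chromosome 6 (90559882 to 90563647) and had 0.122, 0.239, 0.204 and 0.172 CPM at hour 0 in animals 1 to 4. At hour 2 it had 35.31, 13.67, 95.78 and 13.48 CPM, a log2 fold change of 7.26 ± 0.44 (SE) with FDR 1.02e-37. All 4 cultures started near the limit of detection, and animal 3 ended highest. CXCL2, a neutrophil chemokine of the same cluster, went from 2.80, 3.62, 3.31 and 1.66 CPM to 140.44, 90.26, 354.27 and 49.47 CPM (log2 fold change 5.47 ± 0.30, FDR 6.25e-49). Counts of CXCL2 were gathered unevenly, with covered bases per count differing by 1.88 times between libraries. CXCL6, the third gene of the cluster, went from 10.2 ± 6.58 to 175 ± 150 CPM (SD, n = 4; log2 fold change 3.99 ± 0.20, FDR 3.05e-66). In all 3 genes animal 3 was highest and animal 4 lowest at hour 2, and without the uneven libraries CXCL2 and CXCL6 had log2 fold changes of 4.85 and 3.03.

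Chemokines of monocytes and T cells rose as well. CCL2, which draws monocytes, had 1.96, 8.04, 9.97 and 2.39 CPM at hour 0 and 105.48, 88.56, 274.56 and 51.87 CPM at hour 2 (log2 fold change 4.60 ± 0.30, FDR 1.82e-37). CCL5, which draws T cells and monocytes, had 0.061, 0.706, 0.140 and 0.238 CPM at hour 0 and 3.09, 8.81, 20.91 and 1.43 CPM at hour 2 (log2 fold change 4.66 ± 0.60, FDR 2.73e-09). The time points did not overlap for CCL2. CCL5 was under 1 CPM in every hour 0 library, so it passed the filter only because every hour 2 library reached 1 CPM. Its lack of overlap follows from the filter. The values without the uneven libraries were 3.62 for CCL2 and 3.87 for CCL5. Of the 27 chemokines with a row, 9 were tested, 2 of which were under 1 CPM in every hour 0 sample, and 5 rose, against 2.05% of all rows. The other 18 stayed under the filter. CCL20, a chemokine of dendritic and T helper cells, had 0 counts in all 4 libraries at hour 0 and reached 6.36 CPM in animal 3, with 0, 0.415 and 0.021 CPM in animals 1, 2 and 4. CX3CL1, a membrane-bound chemokine, had at most 0.011 CPM at hour 0 and 1.85, 1.13, 5.00 and 0.223 CPM at hour 2.

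**Figure D2:**
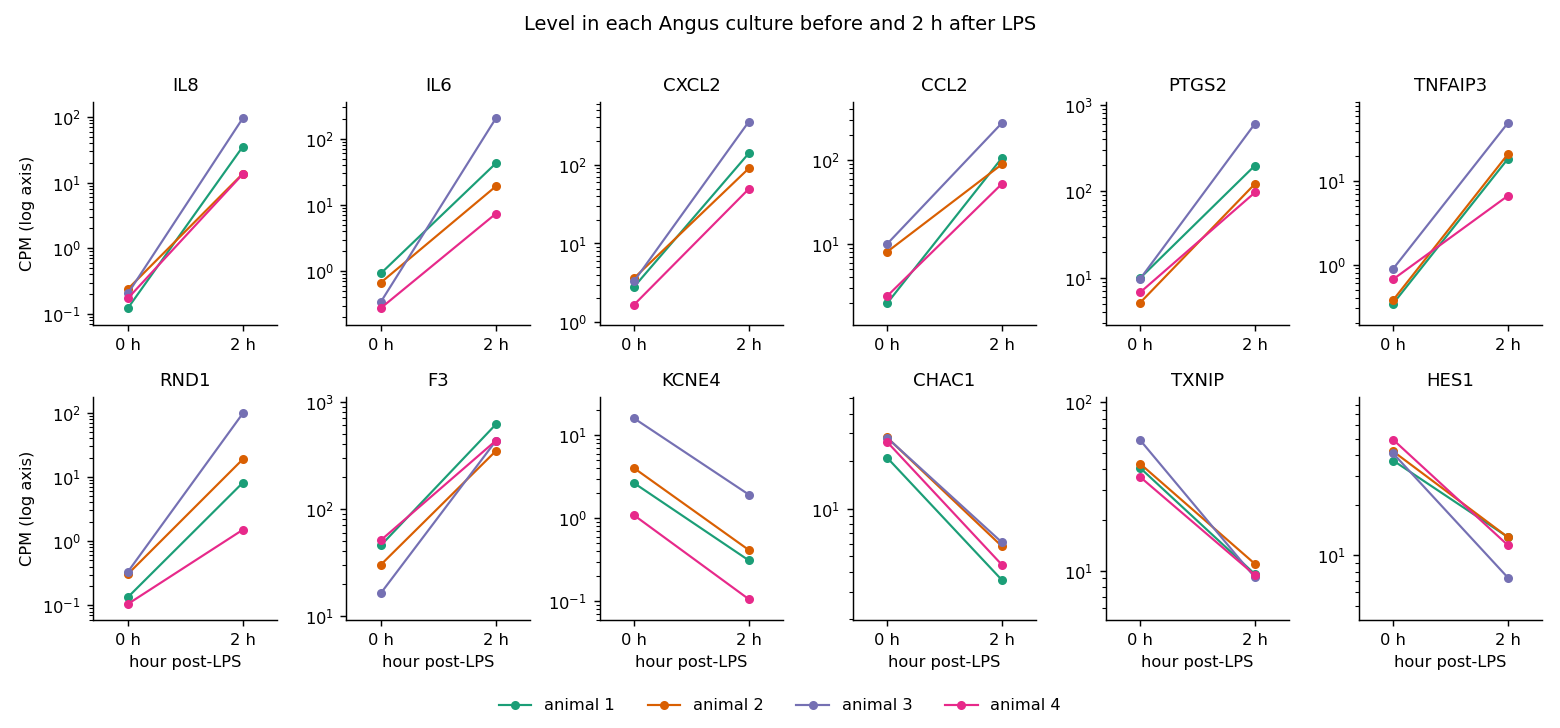
Levels in CPM (log axis, own range in each panel) of 12 genes in the 4 Angus cultures at hours 0 and 2, with a line for each animal. The 8 genes from IL8 to F3 were higher at hour 2 in each animal and KCNE4, CHAC1, TXNIP and HES1 lower. All except F3 were chosen among called rows with the same direction in all 4 animals, so this agreement is part of the choice. Animal 3 was highest at hour 2 for IL8 (95.78 CPM), IL6 (202.79 CPM) and PTGS2 (604.93 CPM).

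Among cytokines, IL6 led. IL6, which drives the acute-phase response, had 0.926, 0.672, 0.344 and 0.277 CPM at hour 0 and 42.48, 19.07, 202.79 and 7.36 CPM at hour 2 (log2 fold change 5.86 ± 0.59, FDR 1.1e-13). The spread between animals at hour 2 was wide, with the culture of animal 3 far over that of animal 4, and the log2 fold change was 5.15 without the uneven libraries. Its row lies on chromosome 4 (31578311 to 31582679), and a second row with the same symbol on chromosome 8 stayed at 0.073 CPM or less. LIF, a cytokine of the IL6 family, rose from 0.475, 2.10, 2.91 and 0.401 CPM to 15.70, 20.39, 56.12 and 4.63 CPM (log2 fold change 4.01 ± 0.25, FDR 5.02e-44), or 2.89 without the uneven libraries. CLCF1, of the same family, went from 4.79 ± 0.834 to 13.2 ± 1.43 CPM, and LIFR, a receptor of the family, from 2.59 ± 0.266 to 6.86 ± 0.540 CPM (SD, n = 4), with log2 fold changes of 1.47 and 1.4. Of 39 cytokines and colony-stimulating factors in the table, 13 were tested, 2 of which were under 1 CPM in every hour 0 sample. Of the 13, 4 rose and 1 fell, against 2.05% and 1.3% of all rows tested. The fall was KITLG, the ligand of KIT, which had 1.15, 1.24, 0.784 and 2.69 CPM at hour 0 and 0.999, 0.143, 0.061 and 1.51 CPM at hour 2. The levels of KITLG overlapped, and without the uneven libraries its log2 fold change was -0.26 (FDR 0.879).

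Classical cytokines of macrophages stayed scarce. TNF had 0, 0, 0.043 and 0 CPM at hour 0 and 0.115, 0.195, 1.43 and 0.053 CPM at hour 2, and was too low to be tested. IL1A had 0.317, 0.319, 0.204 and 0.200 CPM at hour 0 and 3.75, 0.519, 6.46 and 0.881 CPM at hour 2. Both were higher at hour 2 in each of the 4 cultures. IL1B had at most 0.465 CPM in any of the 8 libraries, CSF2 at most 0.073 CPM and SELE at most 0.032 CPM. CSF3, which drives the making of granulocytes, had 1.8 CPM in animal 3 at hour 2 and at most 0.034 CPM in the other 7 libraries.

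None of the tested genes that bind LPS was called. TLR4 had 0.828, 0.945, 2.71 and 0.439 CPM at hour 0 and 0.360, 1.21, 1.31 and 0.457 CPM at hour 2 (log2 fold change -0.45 ± 0.29, FDR 0.241), or -1.15 (FDR 0.255) without the uneven libraries. CD14, under the filter, had 0.102 to 0.505 CPM at hour 0 and 0.064 to 0.660 CPM at hour 2, with animal 3 highest at both. LY96 was at 12.4 ± 1.22 and 13.7 ± 1.32 CPM and MYD88 at 21.9 ± 1.61 and 21.3 ± 1.09 CPM (SD, n = 4), with FDR 0.269 and 0.771. The levels of all of these overlapped between the time points.

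Downstream of the receptor, some adaptors and kinases rose. Of 32 tested TLR4 signalling genes, 4 rose and none fell, while 2.05% of all rows tested rose and 1.3% fell. MAP2K3, a kinase of p38, had 59.62, 57.55, 51.86 and 65.03 CPM at hour 0 and 148.54, 132.77, 159.24 and 133.36 CPM at hour 2 (log2 fold change 1.29 ± 0.10, FDR 2.55e-34). TICAM1, the adaptor of the branch towards IRF, went from 7.35 ± 0.702 to 15.6 ± 3.50 CPM (log2 fold change 1.06), and TRAF3, a ubiquitin ligase of that branch, from 7.75 ± 0.619 to 15.8 ± 1.99 CPM (SD, n = 4; log2 fold change 1.02). Both lay close to the fold limit and had log2 fold changes of 0.93 and 0.94 without animal 3, and TICAM1 had 0.97 without the uneven libraries. MAP3K8, a kinase of the ERK branch, had 1.29, 2.54, 2.93 and 1.18 CPM at hour 0 and 2.67, 6.23, 19.02 and 1.74 CPM at hour 2. Its rise (log2 fold change 1.4 ± 0.31, FDR 0.000108) rested in part on animal 3: the value was 0.65 (FDR 0.5) without the uneven libraries and 0.98 without animal 3.

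Among 13 tested receptors of microbial products and of the IL1 and TNF families, 3 rose and 1 fell. The shares over all rows tested were 2.05% and 1.3%. TNFRSF1B, a TNF receptor, had 2.3, 0.957, 1.01 and 1.61 CPM at hour 0 and 4.68, 4.19, 4.02 and 4.61 CPM at hour 2 (log2 fold change 1.65 ± 0.20, FDR 5.7e-14). IL1RL1, the receptor of IL33, and its neighbour IL18R1, the receptor of IL18, had log2 fold changes of 1.56 and 1.06. Neither was called without the uneven libraries, at 1.32 (FDR 0.0820) and 0.75 (FDR 0.0318), and IL18R1 had 0.71 without animal 3. NOD1, a sensor of bacterial peptidoglycan in the cytosol, fell from 2.20, 2.72, 2.34 and 1.85 CPM to 0.606, 0.441, 0.624 and 0.860 CPM (log2 fold change -1.85 ± 0.25, FDR 1.06e-11).

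Among genes that make up or restrain NF-kB, 7 of 17 tested rose and none fell, against 2.05% and 1.3% of all rows tested. In every hour 0 sample 1 of the 17 was under 1 CPM. NFKBIA, the inhibitor that holds NF-kB in the cytosol, had 5.01, 5.00, 6.17 and 8.12 CPM at hour 0 and 75.67, 55.21, 162.92 and 43.03 CPM at hour 2 (log2 fold change 3.63 ± 0.31, FDR 6.61e-24). TNFAIP3, the ubiquitin-editing enzyme A20, had 0.341, 0.376, 0.892 and 0.668 CPM at hour 0 and 18.68, 21.22, 50.27 and 6.72 CPM at hour 2 (log2 fold change 5.21 ± 0.39, FDR 1.93e-27). In these 2 genes the groups were well apart, and animal 4 was lowest at hour 2. TNFAIP3 was under 1 CPM in every hour 0 library, so the filter itself required its hour 2 levels to lie above those at hour 0. NFKBIZ, a nuclear partner of NF-kB needed for IL6, went from 6.99 ± 0.782 to 60.6 ± 44.9 CPM, and RELB, a subunit, from 4.91 ± 1.42 to 27.4 ± 12.5 CPM (SD, n = 4). BIRC3, a ubiquitin ligase that protects cells from TNF, NFKB1, the p50 subunit, and TNIP1, a partner of A20, had log2 fold changes of 2.23, 1.66 and 1.45. ZC3H12A, a ribonuclease that degrades IL6 mRNA, rose from 5.01 ± 0.674 to 23.2 ± 15.1 CPM, the only call among 11 tested genes of cytokine mRNA decay.

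Immediate-early transcription factors moved in both directions. Of 29 tested, 2 of which were under 1 CPM in every hour 0 sample, 11 rose and 2 fell. The shares over all rows tested were 2.05% and 1.3%. FOSB had 0.499, 0.421, 0.494 and 0.582 CPM at hour 0 and 23.67, 35.02, 32.78 and 18.84 CPM at hour 2 (log2 fold change 5.74 ± 0.20, FDR 1.92e-142). EGR3, a zinc finger factor, had 0.219, 0.171, 0.247 and 0.210 CPM at hour 0 and 3.70, 4.97, 6.00 and 3.43 CPM at hour 2 (log2 fold change 4.38 ± 0.22, FDR 1.73e-96). Both were close to absent before LPS, and the 4 cultures stayed within a narrow range afterwards. NR4A1 and NR4A3, orphan nuclear receptors, rose from 16.7 ± 4.13 to 77.0 ± 36.6 CPM and from 4.99 ± 0.937 to 23.4 ± 10.6 CPM (SD, n = 4). FOSL1 and JUNB, further AP-1 proteins, had log2 fold changes of 1.68 and 1.29, and IER3, a survival factor, 1.99. FOS was lower at hour 2, at 8.95, 12.50, 16.47 and 7.77 CPM against 21.59, 24.44, 22.97 and 20.30 CPM at hour 0 (log2 fold change -1.02 ± 0.15, FDR 3.22e-10). EGR1 fell to 15.21, 13.68, 38.08 and 10.14 CPM from 59.52, 25.66, 22.77 and 53.99 CPM, with overlapping levels and the opposite direction in animal 3 (log2 fold change -1.17 ± 0.43, FDR 0.0354). FOS and EGR1 were named after their values were seen. EGR1 was not called by the quasi-likelihood test (FDR 0.0985), by DESeq2 (adjusted p = 0.145) or without the block (FDR 0.123), and without animal 4 it had -0.73 (FDR 0.247). FOS had -0.97 without the block and -0.94 and -0.90 without animals 1 and 4. NAB2, a repressor that binds EGR proteins, also named after its value was seen, rose from 23.0 ± 3.60 to 106 ± 14 CPM (SD, n = 4; log2 fold change 2.21 ± 0.08).

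Calls in other families of early genes are given here, where 3.35% of all rows tested were called. None of 11 tested KLF factors was called by this rule, while 2 were higher and 6 lower at the FDR alone. Of the 12974 rows tested, 2267 were higher and 2680 lower at the FDR alone. Of 12 MAP kinase phosphatases and Sprouty genes, DUSP5, which acts on nuclear ERK, rose from 1.46 ± 0.788 to 9.22 ± 2.66 CPM, and SPRY1, an inhibitor of receptor signalling, fell from 4.10 ± 0.844 to 1.55 ± 0.571 CPM (SD, n = 4). In 19 genes of the STAT3 and SOCS list, PIM1, a kinase induced by cytokines, alone was called (log2 fold change 1.61 ± 0.22, FDR 4.53e-11).

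The interferon lists held calls in both directions at hour 2. IRF1, a factor that turns on antiviral genes, had 5.85, 3.93, 4.28 and 4.50 CPM at hour 0 and 24.36, 18.52, 53.94 and 9.23 CPM at hour 2 (log2 fold change 2.24 ± 0.34, FDR 1.74e-08). Its row overlaps LOC100848038, and the protocol did not keep the strand, so their counts cannot be told apart. IRF5 rose from 1.3, 1.25, 2.70 and 0.486 CPM to 3.49, 3.79, 8.29 and 1.43 CPM (log2 fold change 1.55), but had 0.72 (FDR 0.373) without the uneven libraries. Of 34 interferon-stimulated genes with a row, 22 were tested, 2 rose, CMPK2 and BST2, and 1 fell, SAMD9. Over all rows tested, 2.05% rose and 1.3% fell. Log2 fold changes were 1.38, 1.11 and -1.03, and those of BST2 and SAMD9 went to 0.77 and -0.74 without the uneven libraries, with FDR 0.192 and 0.0687. BST2 had 0.89 without animal 3 and SAMD9 -0.96 without animal 1. At the FDR alone 2 of the 22 were higher and 12 lower, while 2267 of the 12974 rows tested were higher and 2680 lower. ISG15, a ubiquitin-like protein, had at most 0.054 CPM at hour 0 and 0.278, 0.169, 2.82 and 0.106 CPM at hour 2, and MX2, an antiviral GTPase, had at most 0.043 CPM in any library.

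PTGS2, F3 and PLAUR were among the more abundant rises. PTGS2, the inducible cyclooxygenase COX-2, had 9.95, 5.17, 9.74 and 6.80 CPM at hour 0 and 198.87, 122.15, 604.93 and 97.08 CPM at hour 2 (log2 fold change 4.65 ± 0.29, FDR 2.03e-40). It was the only call among 11 tested genes of prostaglandin synthesis and reception. F3, tissue factor, which starts clotting, had 45.68, 30.16, 16.39 and 51.05 CPM at hour 0 and 612.89, 346.15, 429.36 and 432.01 CPM at hour 2 (log2 fold change 3.76 ± 0.23, FDR 4.08e-47). Here animal 1, not animal 3, was highest at hour 2. PLAUR, the urokinase receptor, rose from 50.4 ± 13.4 to 238 ± 29.4 CPM, and TIMP3, an inhibitor of metalloproteinases, from 713 ± 105 to 1548 ± 337 CPM (SD, n = 4). Of 20 tested genes of metalloproteinases, plasminogen activation and their inhibitors, 3 rose, these 2 among them, and none fell. Over all rows tested, 2.05% rose and 1.3% fell. TIMP3 (log2 fold change 1.10) had 0.97 without the uneven libraries. The row named SYN3 was called with a mean level of 571 CPM at hour 2, but it spans TIMP3 and cannot be told apart from it. The ribosomal protein row RPL7A was called too, from 128.80, 704.69, 181.61 and 799.07 CPM to 797.62, 766.19, 732.45 and 867.33 CPM, with counts gathered unevenly by 1.78 times and FDR 0.157 without the uneven libraries (log2 fold change 1.26), 0.143 without animal 1 and 0.123 without animal 3.

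The matrix list held 1 call and the acute-phase list 2, where 3.35% of all rows tested were called. HAS2, the hyaluronan synthase, rose from 0.828, 0.820, 0.784 and 1.37 CPM to 8.04, 13.11, 36.40 and 7.76 CPM (log2 fold change 3.80 ± 0.40, FDR 6.11e-15), the only one called of 25 tested matrix genes. COL1A1 gave a log2 fold change of 0.09 ± 0.48, FDR 0.922, which is void where the 2 uneven libraries enter. PTX3, a secreted pattern-recognition protein, had 0.061, 0.569, 0.881 and 0.305 CPM at hour 0 and 2.00, 8.44, 49.40 and 1.16 CPM at hour 2 (log2 fold change 4.16 ± 0.51, FDR 9.31e-11), or 2.93 without the uneven libraries. CFB, complement factor B, had 0.256, 0.843, 2.50 and 0.114 CPM at hour 0 and 4.48, 3.80, 54.04 and 1.36 CPM at hour 2. CFB was called at 3.58 ± 0.34, yet its levels overlapped and it had 1.41 (FDR 0.263) without the uneven libraries. These were the 2 calls among 7 tested acute-phase and pattern-recognition genes, and 18 others in the table were not tested. PTX3 was under 1 CPM in every hour 0 library, so it was tested only because every hour 2 library reached 1 CPM. SAA3, an acute-phase protein, had 0 counts in the 4 libraries at hour 0 and 0.147, 0.376, 1.93 and 0 CPM at hour 2.

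Surface molecules that leukocytes meet showed a mixed picture. CD83, a marker of activated dendritic cells, had 0.036, 0.023, 0.021 and 0.086 CPM at hour 0 and 2.21, 2.24, 5.2 and 1.04 CPM at hour 2 (log2 fold change 5.75 ± 0.56, FDR 5.68e-21). CD40, a co-stimulatory receptor, rose from 7.97 ± 1.49 to 19.6 ± 8.37 CPM (SD, n = 4; log2 fold change 1.22), but had 0.90 without animal 3 and was not called there. Without the uneven libraries CD83 had 6.02, but its mean level was then under the limit of 1 CPM, as it was without animal 3 (5.06). These 2 were the only calls among 9 tested adhesion and surface molecules, where 3.35% of all rows tested were called. CD83 was under 1 CPM in every hour 0 library, so it passed the filter only because every hour 2 library reached 1 CPM. ICAM1 had 2 rows on chromosome 7, with log2 fold changes of 0.45 (FDR 0.118) and 0.25 (FDR 0.00484), both under the fold limit, and the first had -0.09 without the uneven libraries. VCAM1, an adhesion molecule for lymphocytes, was below the filter with 0.110, 0.353, 0.602 and 0.057 CPM at hour 0 and 1.31, 4.70, 6.53 and 0.276 CPM at hour 2.

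Several of the largest rises lay outside the immune lists. RND1, a small GTPase that loosens the actin skeleton, had 0.134, 0.307, 0.333 and 0.105 CPM at hour 0 and 8.10, 18.79, 97.16 and 1.5 CPM at hour 2 (log2 fold change 6.01 ± 0.52, FDR 1.75e-19). XIRP1, an actin-binding protein best known from muscle, had 0.183, 0.501, 0.849 and 0.172 CPM at hour 0 and 4.35, 21.02, 43.46 and 3.81 CPM at hour 2 (log2 fold change 5.19 ± 0.21, FDR 8.3e-130). SLCO4A1, a transporter of organic anions such as thyroid hormone, had 0.146, 0.251, 0.140 and 0.648 CPM at hour 0 and 10.25, 6.32, 24.89 and 8.22 CPM at hour 2 (log2 fold change 5.41 ± 0.50, FDR 3.87e-17). These 3 genes were under 1 CPM in every hour 0 library, so the filter itself required hour 2 levels above those at hour 0. RND1 and XIRP1 had 5.18 and 4.24 without the uneven libraries. NFATC1, a factor regulated by calcineurin, named after its value was seen, was more even between animals, from 9.75, 11.64, 14.99 and 10.47 CPM to 104.17, 109.04, 155.00 and 85.59 CPM (log2 fold change 3.26 ± 0.08, FDR 3e-276). NFATC2, its relative, RGS16, which shortens signals of G proteins, and WNT10B, a Wnt ligand beside RND1, had log2 fold changes of 2.11, 4.17 and 2.75 and were also named afterwards. Growth factors and metabolic genes among the calls included HBEGF, a ligand of the EGF receptor, at 2.36, HMOX1, which degrades haem, at 1.42, and the glucose transporter SLC2A1 at 1.71, with all 4 animals higher at hour 2 in each.

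The falls were smaller than the rises. CHAC1, which degrades glutathione, had 21.09, 28.27, 28.18 and 26.52 CPM at hour 0 and 3.55, 5.80, 6.14 and 4.43 CPM at hour 2 (log2 fold change -2.40 ± 0.10, FDR 9.96e-110). TXNIP, an inhibitor of thioredoxin and of glucose uptake, had 40.80, 43.17, 59.67 and 36.04 CPM at hour 0 and 9.53, 10.97, 9.12 and 9.41 CPM at hour 2 (log2 fold change -2.18 ± 0.13, FDR 6.04e-53). HES1, a repressor downstream of Notch, had 36.97, 41.96, 40.78 and 49.27 CPM at hour 0 and 12.85, 12.83, 7.34 and 11.48 CPM at hour 2 (log2 fold change -1.95 ± 0.15, FDR 5.8e-34). For these 3 genes the cultures at hour 2 were tightly grouped and far from those at hour 0. KCNE4, a subunit of potassium channels, gave the largest called fall, from 2.66, 4.03, 16.04 and 1.09 CPM to 0.311, 0.415, 1.93 and 0.106 CPM (log2 fold change -3.15 ± 0.18, FDR 2.97e-71). Its levels overlapped between the time points because the cultures differed widely before LPS, while every culture fell, and it had -4.78 without the uneven libraries.

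Other leading falls were ZNF608 (-2.42), KIAA0226L (-2.13), FAM46B (-2.01), LGALS4 (-1.95), MAP3K13 (-1.88) and NR1D1 (-1.86), each on the log2 scale. LGALS4, a galectin, was not called without the block (FDR 0.0762) and had -2.97 without the uneven libraries. Among abundant falls, PPM1K, a phosphatase of branched-chain amino acid breakdown, had 150.90, 59.48, 78.24 and 104.97 CPM at hour 0 and 46.57, 17.46, 23.34 and 40.40 CPM at hour 2 (log2 fold change -1.65 ± 0.09, FDR 1.01e-74). SESN2, a sensor of leucine and stress, went from 51.0 ± 3.09 to 14.4 ± 1.87 CPM, TRIB3, a pseudokinase of the stress response, from 62.9 ± 1.5 to 21.1 ± 2.15 CPM, and LRIG3, a membrane protein that modulates receptor tyrosine kinases, from 51.0 ± 6.39 to 17.3 ± 5.6 CPM (SD, n = 4). NUAK1, a kinase related to AMPK, and TP53INP1, a target of p53, had log2 fold changes of -1.39 and -1.02. TP53INP1 had -0.97 without animal 1 and was not called there. None of these abundant falls overlapped between the time points.

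The clock, sterol and Notch lists each held calls, where 2.05% of all rows tested rose and 1.3% fell. Of 15 clock genes, the repressors NR1D1 and NFIL3 and the activator DBP fell, and BHLHE41, another repressor, rose. BHLHE41 was under 1 CPM in every hour 0 library, so it was tested only because every hour 2 library reached 1 CPM. NR1D1 had 10.74, 10.76, 13.08 and 12.50 CPM at hour 0 and 2.34, 3.93, 2.71 and 4.21 CPM at hour 2, with FDR 8.22e-25. Of 18 tested genes of cholesterol and lipid synthesis, 4 rose and none fell. Among the 4 were INSIG1, which serves feedback, and SQLE and HMGCS1, enzymes of synthesis, with log2 fold changes of 1.32, 1.12 and 1.08. All 4 animals were higher at hour 2 in each, and without scaling for composition SQLE and HMGCS1 were at 1.00 and 0.95 and were not called. HMGCS1 had 0.99 without animal 4 and 0.98 without the uneven libraries. Among Notch genes, HES1 fell while HEYL and HEY2 were called higher at 1.57 and 1.18. HEYL and HEY2 had overlapping levels and FDR 0.620 and 0.344 without the block, and log2 fold changes of 0.75 and 0.96 without the uneven libraries. In the TGF-beta list SMAD7, an inhibitor of the pathway, rose from 10.6 ± 1.48 to 27.6 ± 2.84 CPM and ID1, a target of BMP, from 34.3 ± 8.88 to 70.8 ± 21.0 CPM (SD, n = 4), and none of the 25 tested fell. The levels of ID1 overlapped, and it was not called without animal 1 (0.90), without animal 2 (0.94) or without scaling for composition (0.90). Among 10 tested alpha-arrestins and glucose-responsive genes, ARRDC3, an alpha-arrestin related to TXNIP, fell (log2 fold change -1.5), as did TXNIP, and SLC2A1 rose. In the survival and stress list of 23, BCL2L11 and HMOX1 were among 3 that rose, and BBC3, a trigger of cell death, and DDIT4, an inhibitor of mTOR, were the 2 that fell. DDIT4 was not called without the block (FDR 0.141) and had -0.81 without animal 4.

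The cell cycle and housekeeping lists held no call. None of the 25 tested cell cycle genes was called by edgeR at 2-fold, 10 being lower and 0 higher at the FDR alone. None of 12 housekeeping genes was called, with 1 lower at the FDR alone. Of the 12974 rows tested, 2680 were lower and 2267 higher at the FDR alone.

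**Figure D3:**
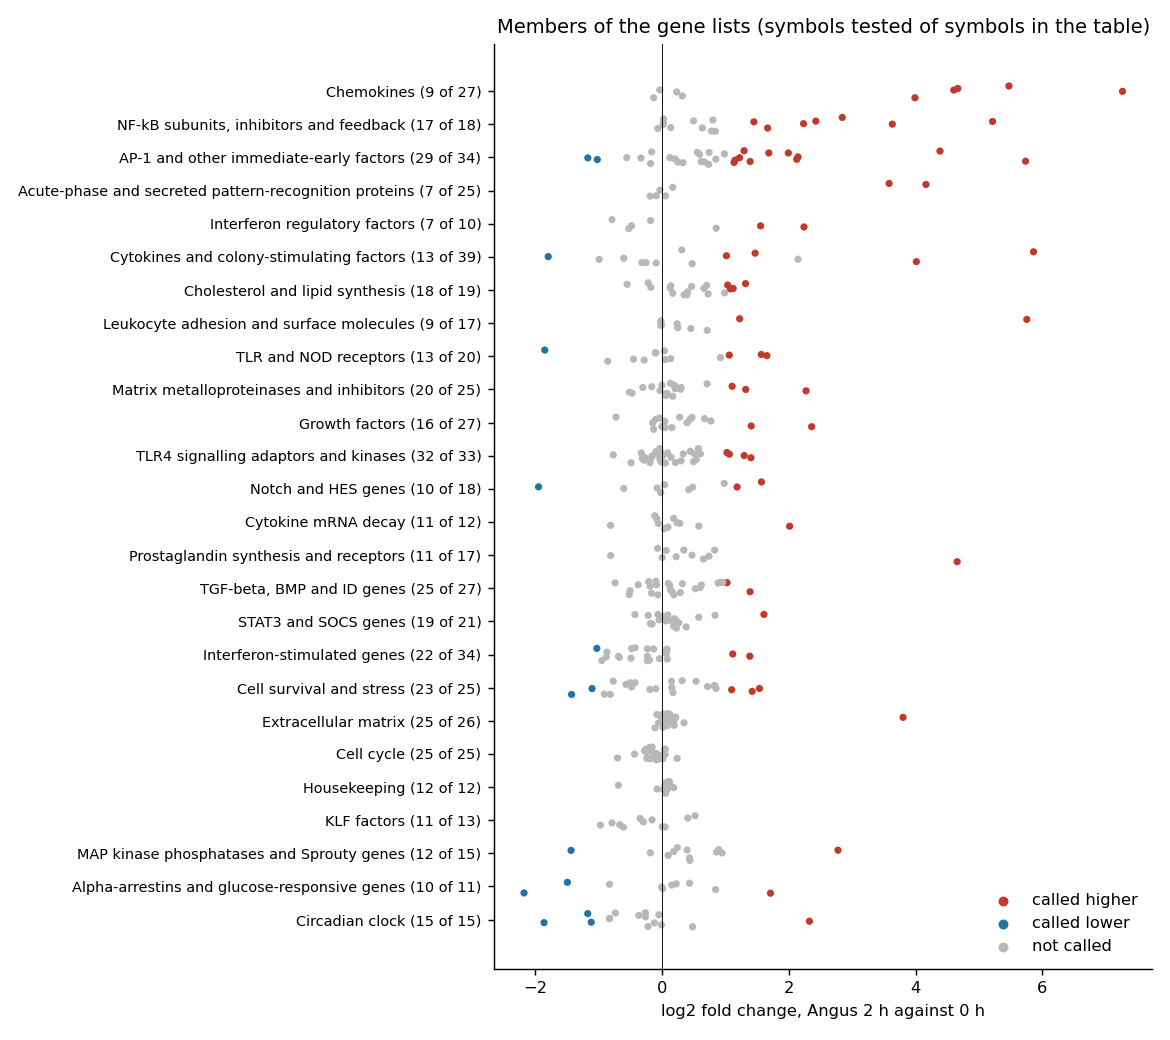
Log2 fold change at hour 2 of each tested member of 26 gene lists, with called rises in red, called falls in blue and other rows in grey; the numbers give symbols tested of symbols in the table. Chemokines, NF-kB genes and immediate-early factors hold rises of up to 7.26, 5.21 and 5.74, with 5, 7 and 11 called, and cell cycle, KLF and housekeeping genes hold no call.

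The 4 cultures responded by different amounts. On the scale log2(CPM + 1), which understates changes of low genes, the median change of the 266 rises was 1.23, 1.17, 1.39 and 1.01 in animals 1 to 4. Animal 3 had the largest change in 146 of them (54.9%) and animal 4 the smallest in 139. For the NF-kB genes the largest rise was in animal 3 in all 7, with medians of 2.3, 2.07, 3.71 and 1.90, and for immediate-early factors in 10 of 11. The 4 sterol genes were the other way: animal 4 had the largest rise in 3 of them. Medians of the 169 falls were -0.98, -0.91, -0.98 and -0.82. The library of animal 3 at hour 2 is also 1 of the 2 that stood apart, and its part in these differences was not tested. Animal 3 remained highest at hour 8 for IL8, at 40.46 CPM against 20.86, 10.47 and 6.87 CPM in animals 1, 2 and 4, in a library whose covered bases per count at COL1A1 were 115.4. The range of the change over animals had a median of 0.64 over the 266 rises, was under 0.5 for 97 and over 2 for 25.

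Levels at hour 8 are set beside those at hour 2, since both comparisons share the hour 0 libraries. At hour 8, 117 rows with a symbol (0.896% of 13060 tested) were called higher than at hour 0 and 57 (0.436%) lower. Some early rises were near the hour 0 level at hour 8: FOSB was at 0.565, 0.284, 0.689 and 0.221 CPM, XIRP1 at 0.301 ± 0.174 CPM and CD83 at 0.348 ± 0.209 CPM (SD, n = 4). Others were in between, such as PTGS2 at 64.9 ± 58.3 CPM (log2 fold change 2.57 at hour 8 against 4.65 at hour 2), NFKBIA at 32.9 ± 7.41 CPM (2.35 against 3.63) and TNFAIP3 at 5.88 ± 2.25 CPM (3.26 against 5.21). IL6 was at 51.2 ± 58.1 CPM (5.58 against 5.86) and CCL2 at 81.9 ± 35.7 CPM (3.99 against 4.60).

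A few genes were higher at hour 8 than at hour 2 in all 4 cultures. CXCL6 had 273.82, 297.94, 726.10 and 105.42 CPM, CCL5 had 6.62, 17.87, 35.33 and 3.15 CPM, and CFB had 32.02, 26.88, 197.85 and 5.93 CPM. BST2, a restriction factor of enveloped viruses, had 16.47, 13.83, 33.41 and 7.72 CPM, and ISG15 3.15, 3.16, 15.07 and 0.868 CPM. Several of the early falls were near their hour 0 level: CHAC1 was at 27.6 ± 5.65 CPM (log2 fold change -0.02), HES1 at 44.0 ± 4.89 CPM (-0.03), KCNE4 at 7.0 ± 7.11 CPM (0.22) and NR1D1 at 15.9 ± 2.53 CPM (0.33). Those 4 values had FDR from 0.0125 to 0.926 at hour 8 and none was called. TXNIP was at 61.9 ± 12.2 CPM, with a log2 fold change of 0.38 (FDR 0.000167). SESN2 and TRIB3 were at 36.6 ± 2.77 and 47.4 ± 2.51 CPM, between their levels at hours 0 and 2. FAM46B (log2 fold change -0.80), SPRY1 (-0.83) and FOS (-0.92) were also still under their hour 0 level, with FDR from 1.01e-07 to 4.3e-05, but short of the fold limit. DBP was at 1.93 ± 0.481 CPM and EGR1 at 11.3 ± 7.82 CPM (log2 fold change -2.07, FDR 2.55e-05), and both were called lower at both hours.

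**Figure D4:**
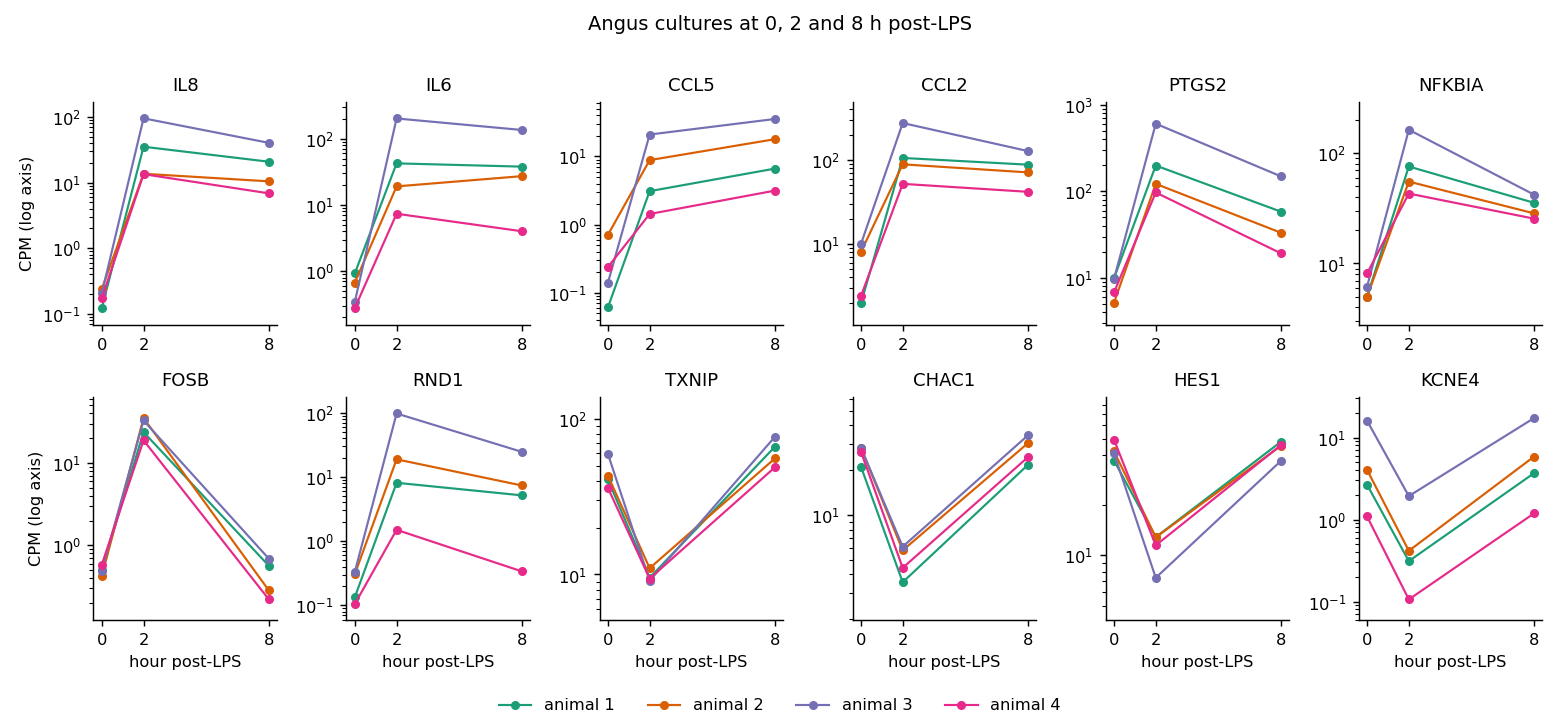
Levels in CPM (log axis, own range in each panel) of 12 genes in the 4 Angus cultures before LPS and at 2 and 8 h after it, with a line for each animal. FOSB fell back to 0.440 CPM on average at hour 8 and CCL5 stood at 15.7 CPM, while TXNIP, CHAC1, HES1 and KCNE4 dipped at hour 2.

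The response at hour 2 was compared with that of 4 Holstein cultures, in which 285 rows (2.19%) rose and 124 (0.951%) fell. A test of the difference itself, the Angus change minus the Holstein change over 16 libraries, called 76 of 12950 rows (0.587%). In 46 of them (0.355%) the Angus change was lower and in 30 (0.232%) higher, and 41 of the 76 were also called in Angus alone. In 50 of the 76 every animal of either breed changed by more than every animal of the other, as in 10.3% of all rows tested. The count depended on the fit: 28 rows without the block and 39 by the quasi-likelihood test. Without the Angus animal 4 it was 58, and without the Angus animal 3 it was 112, with 72 lower in Angus. Libraries of Holstein animals 2 and 4 at hour 0 stood apart in the same way as the 2 Angus libraries, at 66.6 and 66.2 covered bases per count at COL1A1, and 82 rows were called without the animals concerned.

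Immediate-early genes made up many of the rows with a lower change in Angus: 9 of the list were called, all lower in Angus. IER2, an early gene of growth stimulation, was not called in Angus, with 21.95, 13.07, 13.96 and 24.88 CPM at hour 0 and 17.55, 14.06, 17.41 and 13.91 CPM at hour 2. In Holstein it went from 12.99, 11.93, 11.70 and 14.30 CPM to 39.24, 42.37, 31.17 and 48.48 CPM, and the difference was -1.84 ± 0.22 (log2, FDR 4.51e-13). CSRNP1, a nuclear protein induced by AXIN1, had 9.04 ± 1.04 and 11.4 ± 4.66 CPM in Angus and means of 9.30 and 37.4 CPM in Holstein (difference -1.76 ± 0.28, FDR 1.69e-07). EGR3 rose in both breeds, to 4.53 CPM on average in Angus and 19.1 CPM in Holstein (difference -1.94 ± 0.36, FDR 1.74e-05). NR4A1 and JUNB differed by -1.33 and -1.04 and IER3 by -1.10, with FDR from 1.69e-12 to 0.000154. NR4A1, JUNB and IER3 were not called without the block (FDR 0.245, 0.248 and 0.466), nor were JUNB and IER3 without Angus animal 4 (-0.85 and -0.93), while each animal of Angus changed less than each of Holstein.

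Other named genes had a lower change in Angus. DUSP6, the phosphatase of cytosolic ERK, had 11.96, 5.04, 4.08 and 12.29 CPM at hour 0 and 16.45, 13.41, 13.86 and 11.96 CPM at hour 2 in Angus, and 4.18, 2.25, 2.88 and 3.95 CPM then 33.21, 17.81, 21.33 and 31.40 CPM in Holstein (difference -2.08 ± 0.33, FDR 3.06e-07). HES1 fell in Angus and was at 34.5 and 27.5 CPM on average in Holstein (difference -1.63 ± 0.18, FDR 1.64e-15). ZBTB46, a factor known from dendritic cells, reached 1.77, 2.05, 1.76 and 1.51 CPM in Angus and 3.40, 3.92, 2.68 and 4.38 CPM in Holstein from 0.162 CPM or less, with a difference of -1.91 (FDR 0.0402) that was not called without the block (FDR 0.0810), by the quasi-likelihood test (FDR 0.147) or without Angus animal 4 (-1.20, FDR 0.495). Its change in Angus alone was 4.51 on the log2 scale, 5.12 without the uneven libraries, in a row whose mean level was under 1 CPM. NFKBIA differed by -1.48 ± 0.41 (FDR 0.0165), but by the quasi-likelihood test FDR was 0.116 and without the block 0.358, and the difference was -0.99 without the animals of the uneven libraries. IRF1 differed by -2.18 ± 0.47 (FDR 0.000877), with FDR 0.0588 and 0.0912 in those fits. SMAD7 and ID1 differed by -1.04 and -1.51, and SNAI1 and KLF10, named after their values were seen, by -1.39 and -1.37, with all Angus animals below all Holstein animals. SMAD7 had -0.90 without Angus animal 4. IL8 was not called for a difference (-1.92 ± 0.67, FDR 0.0883), nor was IL6 (0.55 ± 0.83, FDR 0.890).

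The genes with a higher change in Angus had varied functions. RASL11B, a small GTPase, stayed at 4.98 ± 1.61 and 5.51 ± 0.611 CPM in Angus (SD, n = 4), while it fell from 4.80 to 1.72 CPM on average in Holstein (difference 1.64 ± 0.30, FDR 9.29e-06). MTSS1, an actin and membrane scaffold, rose from 1.88 ± 0.348 to 3.88 ± 0.436 CPM in Angus and was at 1.21 and 0.870 CPM on average in Holstein (difference 1.46 ± 0.30, FDR 0.000184). Its change in Angus alone, 1.05, was not called without animal 1 (0.86) or without scaling for composition (0.93). ZNF280C and FAM131B differed by 1.48 and 1.55, and FAM131B was not called without the block (FDR 0.262). RPL7A gave the largest positive difference, 2.36 ± 0.68 (FDR 0.0402), in a row whose counts were gathered unevenly and that was not called by the quasi-likelihood test (FDR 0.161) or without Angus animals 1 (FDR 0.190) or 3 (FDR 0.0932).

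**Figure D5:**
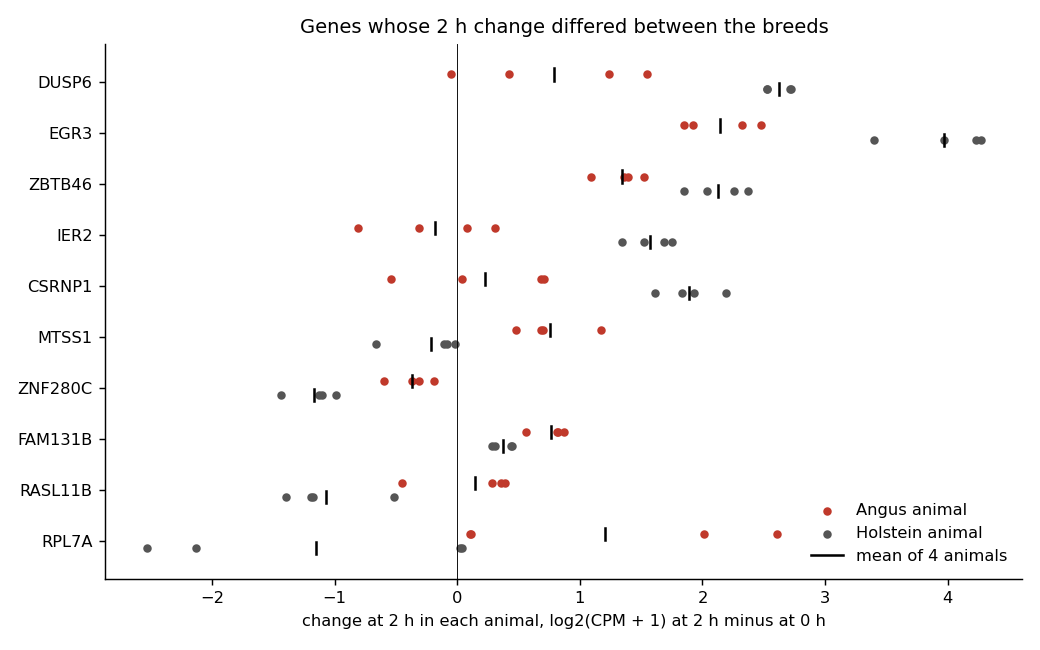
Change at hour 2 in each animal, as log2(CPM + 1) at 2 h minus at 0 h, for 10 genes whose change differed between breeds; red points are Angus animals, grey points Holstein animals and black bars the mean of 4. The genes were chosen so that the animals of the breeds did not overlap, so the gap between breeds is part of the choice. The Angus animals lie to the left of the Holstein animals for DUSP6, EGR3, ZBTB46, IER2 and CSRNP1 and to the right for the other 5. RPL7A splits into 2 clusters in each breed.

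Some changed genes lay side by side. Rows called in the same direction within 100 kb of each other formed 15 groups of rises with 33 rows and 7 groups of falls with 15 rows. How often rows tested lie that close was not counted, so the groups are a description. IL8, CXCL6 and CXCL2 formed the group on chromosome 6 (90559882 to 90824841). CTSW, a protease of lymphocytes, CCDC85B and FOSL1 lay together on chromosome 29 (44661698 to 44679319), and IL1RL1 and IL18R1 on chromosome 11 (7122686 to 7179569). Among the falls, DBP and MAMSTR lay on chromosome 18 (55722335 to 55809104). A total of 69 called rows overlapped another row with a symbol. The share was 19.2% of rises and 10.7% of falls, against 17.3% of all rows tested. Among the 69 were CXCL2, PTGS2, TXNIP, NR1D1, PTX3, LIFR, HEYL, NFKB1, IER3, PLAUR and MTSS1. In such pairs the counts cannot be told apart without the strand. Rises had a median span of 16730 bp and falls of 18490 bp, against 21133 bp for all rows tested. Rises were low before LPS, with a median of 5.2 CPM at hour 0 and 18.3 CPM at hour 2, and falls went from a median of 4.36 to 1.81 CPM, while all rows tested had 17.7 and 17.5 CPM. In 25 of the rises no hour 0 library reached 1 CPM, and the filter let such rows be tested only if all hour 2 libraries did.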

How the data were processed

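RNA of dermal fibroblast cultures was sequenced from poly-A selected, unstranded libraries on an Illumina HiSeq. Per the labels and the methods, the submitters' processing notes name CASAVA 1.7, and reads were aligned with NextGENe to the bovine build UMD v3.1. The deposited tables give read counts per row, where a row is a whole gene span, and an average coverage that was used only to find covered bases per count. Counts of a library summed to more than its matched reads (61457138 to 104406293 against 40233846 to 66287735), and the sources used here do not say why.

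Rows with at least 1 CPM in 4 of 8 libraries were tested with edgeR 4.0.16 in R 4.3.3 (TMM scaling, likelihood-ratio test, the test the study used) with the animal as a block, because the same number in a breed is the same animal. Same-animal samples deviated together (r = 0.662 to 0.743 in 4 pairs, against a mean of -0.228 between different animals). CPM are counts per 1000000 after TMM scaling. Benjamini-Hochberg adjustment covered all 20352 rows tested, with or without a symbol. The breed difference was an interaction over 16 libraries, with at least 1 CPM in 8 of them. The code was tested on simulated data. Alternatives were no block, the quasi-likelihood test, DESeq2 1.42.0, other scaling and filters, and leaving out animals or libraries.

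The members and lists were chosen with earlier results of these data known. Named were the 12 highest and 10 lowest called rows with the same direction in all 4 animals, the 6 most abundant called rises and falls, up to 4 called rows per list, a set list of LPS response genes and up to 5 breed differences each way. These breed differences were taken only from called rows in which the changes of the animals did not overlap between breeds. The rest were named after their values were seen: CXCL6, FOS, EGR1, JUNB, FOSL1, IER3, NAB2, RGS16, NFATC1, NFATC2, WNT10B, CTSW, NFKB1, BIRC3, TNIP1, KLF10, SNAI1, CNN1 and the genes under other observations. LOC and open reading frame symbols were counted (32 rises, 25 falls) but not named, a few rows that the rule names are not reported here, and 169 symbols stand on several rows. Each culture is 1 animal, so the spread is between animals. No sequence was read, and only names were checked against RefSeq, where 19566 of 27371 symbols matched.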

Additional observations from a re-analysis of the deposited data

Results flagged for a closer look

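Of 273 groups of 4 samples, 24 held a sample set apart from the other 3 by more than Dixon's 95% limit, which chance alone gives in about 1 of 20 groups. A total of 13 of the 24 were animal 3 at hour 2 and 3 were animal 4 at hour 0, the 2 libraries that stood apart, and 18 were at hour 2. Animal 3 at hour 2 was set apart for 5 inflammatory genes under the filter or in the interferon list, CCL20 (6.36 CPM), CSF3 (1.8 CPM), TNF (1.43 CPM), CD14 (0.660 CPM) and ISG15 (2.82 CPM). It was also set apart for PTX3 (49.4 CPM), CFB (54 CPM), BIRC3 (155 CPM) and COL1A1 (36658 CPM), and among falls for KCNE4 (1.93 CPM), LGALS4 (1.96 CPM), ARRDC3 (18.7 CPM) and EMX2 (15.2 CPM). Animal 4 at hour 0 was set apart for COL1A1 (31184 CPM), HAS2 (1.37 CPM) and ZBTB46 (0.162 CPM). At hour 2 the others were KIAA0226L in animal 4 (3.46 CPM), TRAF3 in animal 2 (12.8 CPM), HEY2 in animal 2 (5.86 CPM), CNN1 in animal 2 (417 CPM) and HMGCS1 in animal 1 (57.1 CPM). At hour 0 they were HEY2 in animal 2 (3.29 CPM), DBP in animal 3 (5.2 CPM) and the ICAM1 row at chromosome 7, 45026348, in animal 3 (20.4 CPM).

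The rule for breed differences picked 10 genes by the interaction test, with values as Angus minus Holstein on the log2 scale. The change at hour 2 was lower in Angus for DUSP6 (-2.08), EGR3 (-1.94), ZBTB46 (-1.91), IER2 (-1.84) and CSRNP1 (-1.76), and higher for RPL7A (2.36), RASL11B (1.64), FAM131B (1.55), ZNF280C (1.48) and MTSS1 (1.46). ZBTB46, RPL7A and FAM131B were not called in every alternative fit. Further named genes were also called for a difference. Beside those given above, the change was lower in Angus for CTSW (-2.29), DUSP5 (-2.24), FOSL1 (-1.66), HBEGF (-1.61), MAP3K8 (-1.29), BBC3 (-1.26) and NOD1 (-1.09). CTSW, DUSP5, FOSL1, MAP3K8 and NOD1 were not called by the quasi-likelihood test (FDR 0.0653 to 0.166), nor was HBEGF without the block (FDR 0.351).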

How the results depend on the processing

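With the animal not used as a replicate block, 386 rows with a symbol were called at hour 2 in place of 435 and 379 were called in both fits, while the breed difference went from 76 to 28 rows (10 higher and 18 lower in Angus) and the hour 8 falls from 57 to 37. The pairing moved TLR4 at hour 8 to -0.16 on the log2 scale when left out. The quasi-likelihood test called 418 rows at hour 2 and 39 breed differences (19 higher and 20 lower). DESeq2 called 427. Without scaling beyond the total count 262 rows fell, and COL1A1 was at -0.04. The FDR alone passed 4947 rows, 2267 higher and 2680 lower. Leaving out 1 animal at a time gave 415 to 475 calls, 256 to 295 higher and 152 to 184 lower, and 58 to 112 breed differences, 27 to 40 higher and 31 to 72 lower in Angus. In the same fits MYD88 ranged from -0.08 to 0.02, COL1A1 from -0.52 to 0.75 (without animals 3 and 4) and IER2 from -0.35 to 0.03, and without the 2 uneven libraries the ICAM1 row at chromosome 7, 16012113, was at -0.09. The causes of these shifts were not tested. No row called at hour 2 changed direction under any of these fits. Over all alternatives, 1942 values of named genes kept their direction and side of the threshold, 113 lost the call, 6 gained it and 6 changed sign. One CPM stood for 61.5 to 104.4 counts, so genes under the filter have levels of few counts.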

Other observations

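Genes of the amino acid response, which the factor ATF4 drives when amino acids are short or the endoplasmic reticulum is stressed, were lower at hour 2. This list was drawn up after the values were seen, so its counts are a description. All 26 were tested, 5 fell and none rose, against 1.3% of all rows falling by the same rule. At the FDR alone 17 were lower and none higher, while 2680 of the 12974 rows tested were lower and 2267 higher. The 5 were CHAC1, SESN2, TRIB3, STC2 and DDIT4. STC2, a secreted stanniocalcin, had 8.98, 6.00, 7.57 and 5.98 CPM at hour 0 and 3.08, 2.53, 2.65 and 2.43 CPM at hour 2 (log2 fold change -1.4 ± 0.13, FDR 1.41e-26). The hour 2 levels were all below the hour 0 levels. ATF4 itself was at 352 ± 21.9 and 260 ± 21.5 CPM (SD, n = 4; log2 fold change -0.44, FDR 1.88e-09), and DDIT3, a factor of the stress response whose row overlaps MARS, at 46.3 ± 13.0 and 24 ± 2.41 CPM (-0.91, FDR 5.32e-06), both under the fold limit. DDIT3 passed it without animal 4, at -1.11, without the uneven libraries, at -1.02, and without scaling for composition, at -1.04. ASNS, asparagine synthetase, was at 248 ± 7.75 and 226 ± 8.40 CPM (-0.13, FDR 0.109). At hour 8 ATF4 was at 381 ± 28.2 CPM and STC2 at 7.26 ± 1.19 CPM.

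Several factors that set the identity of cells in the embryo fell, also seen only after their values were known. Of 113 homeobox genes with a row, 50 were tested, 6 fell and 2 rose. IRX3 had 7.67, 7.34, 7.61 and 6.32 CPM at hour 0 and 3.09, 2.49, 2.34 and 2.56 CPM at hour 2 (log2 fold change -1.47 ± 0.13, FDR 2.48e-26). IRX5, its relative, MEIS1, a partner of HOX proteins, and EMX2 had -1.31, -1.45 and -1.28, and the levels of all 4 did not overlap between hours. MEOX2, a factor of mesoderm, had -1.32, but -0.97 without the uneven libraries. Of 5 tested T-box genes 3 fell and 1 rose. TBX15, a factor of dermal fibroblasts, had -1.02, with -0.97 and -0.96 without animals 2 and 4 and -0.99 without the uneven libraries. OSR1, a zinc finger factor of connective tissue, had -1.05, and -1.03 (FDR 0.0934) without the block, -0.99 without animal 2 and -0.69 (FDR 0.401) without the uneven libraries. Of 251 tested zinc finger genes named ZNF, 11 fell and 2 rose. Over all rows with a symbol tested, 1.3% fell and 2.05% rose. At hour 8 EMX2, IRX3, IRX5, MEOX2, MEIS1, TBX15 and OSR1 had log2 fold changes between -0.23 and -0.05 against hour 0.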
